A study of Mus musculus with 12 samples.

Results

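Expression of 6 genes of haemoglobin and the red blood cell was followed across 12 RNA-seq libraries of MC38 tumours: the alpha-globin genes Hba-a1 and Hba-a2, the beta-globin genes Hbb-bs and Hbb-bt, Alas2 and Slc4a1. They were taken by gene symbol, as signs of blood content or bleeding, and are 6 of 18609 listed genes. The choice was made with earlier results of these data known, so member counts beside shares of all genes are descriptive. Of these 6, 5 passed the filter on low values and were among 12164 genes tested, and Slc4a1 did not. MC38 is a mouse colon cancer line, and its tumours grew here in C57BL/6 mice. The hosts were wild type or carried a TLR4 knockout, which removes the receptor for bacterial lipopolysaccharide. They received PBS or Salmonella by intravenous injection, and tumour tissue was taken 1 day later, which gave 4 groups of 3 libraries titled F-1, M-1 and M-2. All groups thus share the tumour line and the strain. The labels give no sex, age, Salmonella strain or dose, and do not say which cells of the tumour carry the knockout, nor that the 3 libraries in a group were taken from separate animals. If they did not, p-values measure only a spread that may be technical.

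Haemoglobin, the oxygen carrier of red cells, is a tetramer of alpha and beta globin chains, each holding a haem group. Alas2 encodes the erythroid form of the enzyme that starts haem synthesis, and Slc4a1 encodes band 3, the anion exchanger of the red cell membrane. Red cell precursors in bone marrow and spleen transcribe all of these genes, and mammalian red cells lose their nucleus but keep leftover globin RNA while they are young. In a tumour, globin RNA can therefore come with blood held in or leaking from vessels, and other cell types can transcribe globin genes at low levels.

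The 5 genes with an entry in the RefSeq promoter table (GRCm38.p6) are shown through the 250 bases before their start, because their levels moved together across libraries. Both alpha-globin promoters were identical over 247 of 247 aligned bases, so Hba-a1 stands for Hba-a2. Capitals mark 3 motifs searched on both strands: GATAA, the core bound by GATA factors, CACCC, the box bound by Krüppel-like factors, and CCAAT, and no match of 1 motif overlapped another. Each sequence reads 5′ to 3′ towards the gene. Hba-a1 precedes chr11:32283672-32284486 (plus strand), Hbb-bs precedes chr7:103826523-103827928 and Hbb-bt chr7:103812524-103813923 (minus strand), and Alas2 precedes chrX:150547417-150570622 (plus strand).
Hba-a1: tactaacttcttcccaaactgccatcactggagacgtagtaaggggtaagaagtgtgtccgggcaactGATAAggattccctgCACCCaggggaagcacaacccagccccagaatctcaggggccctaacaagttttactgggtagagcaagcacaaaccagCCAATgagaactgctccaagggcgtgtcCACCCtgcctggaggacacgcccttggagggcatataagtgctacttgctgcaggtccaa
Hbb-bs: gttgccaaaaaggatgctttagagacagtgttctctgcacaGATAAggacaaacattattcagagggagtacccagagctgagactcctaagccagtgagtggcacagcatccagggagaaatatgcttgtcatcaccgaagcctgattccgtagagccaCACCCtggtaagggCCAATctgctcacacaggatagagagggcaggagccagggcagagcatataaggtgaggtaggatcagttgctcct
Hbb-bt: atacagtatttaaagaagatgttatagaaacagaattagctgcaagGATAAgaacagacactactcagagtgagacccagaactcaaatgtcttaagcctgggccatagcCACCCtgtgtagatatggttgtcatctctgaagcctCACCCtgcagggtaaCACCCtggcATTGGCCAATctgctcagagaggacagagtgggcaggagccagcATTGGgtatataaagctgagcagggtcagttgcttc
Alas2: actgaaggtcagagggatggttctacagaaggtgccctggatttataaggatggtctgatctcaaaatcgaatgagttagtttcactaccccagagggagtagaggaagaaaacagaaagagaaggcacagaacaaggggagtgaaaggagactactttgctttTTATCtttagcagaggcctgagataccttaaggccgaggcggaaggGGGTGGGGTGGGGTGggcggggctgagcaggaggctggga

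All 5 windows held GATAA and CACCC, and the 4 globin windows also held CCAAT, which the Alas2 window did not. Among 32851 windows of the same length, 22.6% held GATAA, 52.0% held CACCC, 33.8% held CCAAT and 3.45% held all 3. Counted from the start, the GATAA match lay at -182 to -178 in Hba-a1, at -209 to -205 in Hbb-bs and, on the other strand, at -86 to -82 in Alas2. The beta-globin promoters were 71.72% identical over 244 aligned bases. A match describes letters only, and binding was not measured here.

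Levels are given as FPKM, which divides a gene's fragments by its length and by the depth of its library. The libraries held 30514112 to 38769095 fragments, so that 1 fragment in a 1 kb gene was worth 0.0258 to 0.0328 FPKM. Chi-square values per gene between libraries of a group were 17.6 to 175, far above sampling noise, so none was a repeat of another. Among wild-type Salmonella libraries, M-2 stood apart: its scaling factor was 1.03 against 0.844 in F-1 and 0.845 in M-1. Fragments of 4 Y-linked genes numbered 0 to 1 in F libraries and 266 to 1247 in M libraries. In each group F-1 thus differed from M-1 and M-2 in Y-linked RNA. These genes do not tell whether M-1 and M-2 came from separate animals. Tlr4 RNA was present in knockout hosts too, at 2.29 ± 0.792 and 1.83 ± 0.116 FPKM (SD, n = 3) under PBS and Salmonella, against 2.53 ± 0.0534 and 2.99 ± 0.685 in wild-type hosts. The labels give the knockout to the mice and say nothing of Tlr4 in the tumour line, and which exons are missing is not given. The level of Tlr4 RNA therefore does not check the labels. The epithelial markers of the tumour line had low medians over the 12 libraries. Median FPKM was 0.0384 for Epcam, 0.179 for Krt8, 0 for Krt18, 0.0659 for Krt19 and 0.286 for Cdh1. Krt19 reached 2.13 FPKM at its highest, and the others 0.0770 to 0.450.

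Hbb-bs, an adult beta-globin gene, was the most abundant of the 6 genes per length. Under PBS it was measured at 28.4, 15.6 and 36.7 FPKM in wild-type F-1, M-1 and M-2. After Salmonella the wild-type libraries stood at 242.0, 237.4 and 92.7 FPKM. The knockout libraries held 4.77, 6.39 and 17.6 FPKM under PBS and 31.4, 24.7 and 14.9 FPKM after Salmonella. The wild-type Salmonella libraries lay above all 9 others, with M-2 the lowest of them.

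Hba-a1, the first of the alpha-globin pair, was at 27.7, 7.85 and 12.7 FPKM under PBS and at 83.9, 78.0 and 27.8 FPKM after Salmonella in wild-type hosts. The knockout libraries held 3.03, 2.93 and 10.1 FPKM under PBS and 9.89, 9.46 and 5.90 FPKM after Salmonella. Wild-type M-2 after Salmonella, at 27.8 FPKM, barely exceeded wild-type F-1 under PBS, at 27.7 FPKM. Hba-a2, its near copy, was lower throughout, at 4.32, 1.88 and 5.89 FPKM under PBS and 37.2, 30.9 and 11.1 FPKM after Salmonella in wild-type hosts. Knockout libraries had 1.23, 0.693 and 5.22 FPKM under PBS and 3.75, 3.76 and 2.35 FPKM after Salmonella. Its wild-type Salmonella libraries again lay above the other 9.

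Hbb-bt, the other adult beta-globin gene, was at 4.75, 3.27 and 6.67 FPKM under PBS and at 31.0, 28.5 and 15.3 FPKM after Salmonella in wild-type hosts. Knockout hosts held 1.63, 0.372 and 3.62 FPKM under PBS and 4.20, 3.48 and 1.80 FPKM after Salmonella. Alas2 was scarce, at 0.463, 0.170 and 0.801 FPKM under PBS and 2.26, 1.38 and 0.878 FPKM after Salmonella in wild-type hosts. Among knockout libraries Alas2 had 0.239, 0.0258 and 0.490 FPKM under PBS and 0.516, 0.230 and 0.161 FPKM after Salmonella, the lowest value being 2 fragments. For both genes the 3 highest libraries were the wild-type Salmonella ones.

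**Figure D1:**
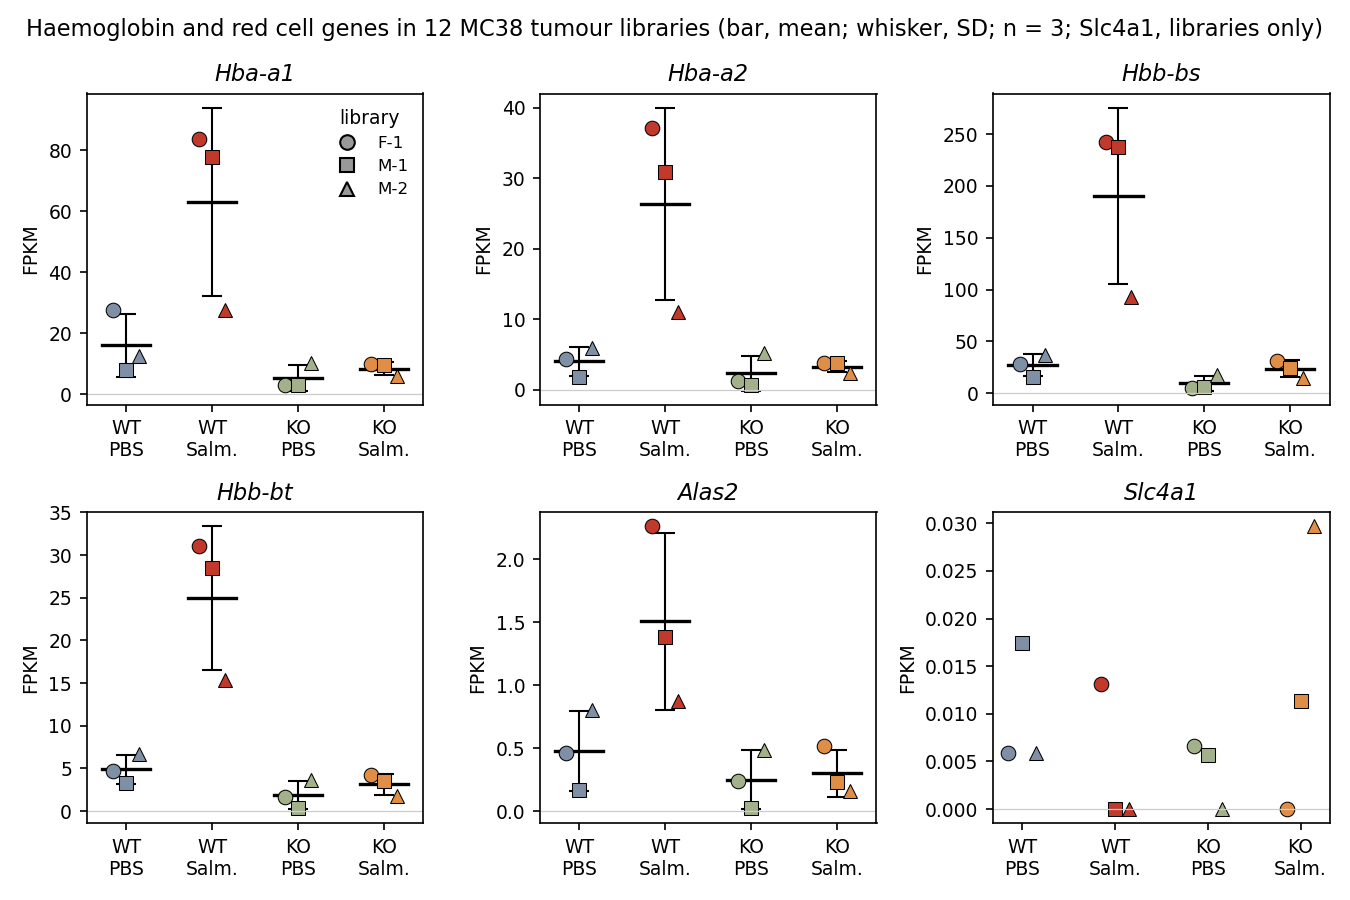
FPKM (y axis, linear) of the 6 genes in each library by group; circles are F-1, squares M-1 and triangles M-2, bars are means and whiskers SD (n = 3), with libraries only for Slc4a1. For Hbb-bs the wild-type Salmonella libraries lie at 92.7 to 242.0 FPKM and all others at or below 36.7.

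The order of the group means was the same for the 4 globin genes and Alas2: wild type with Salmonella, wild type with PBS, knockout with Salmonella, knockout with PBS. For Hbb-bs these means were 190.7 ± 84.9, 26.9 ± 10.6, 23.7 ± 8.33 and 9.61 ± 7.01 FPKM (SD, n = 3). Only the first group was clear of its neighbour in range for all 5 genes, and the other neighbours overlapped for all 5. Some libraries also kept their rank within a group. Wild-type Salmonella F-1 was the highest and M-2 the lowest of their group for 5 of 5 genes, wild-type PBS M-1 was the lowest for 5 of 5, knockout PBS M-2 the highest for 5 of 5 and knockout Salmonella M-2 the lowest for 5 of 5. The other ranks changed between genes: the highest was M-2 for 4 genes and F-1 for 1 among wild-type PBS libraries, and F-1 for 4 and M-1 for 1 among knockout Salmonella libraries, while the lowest knockout PBS library was M-1 for 4 genes and F-1 for 1. Over the 12 libraries the 10 pairs among the 5 genes had Pearson r of 0.919 to 0.976 on the log2(FPKM + 0.5) scale, and r of 0.748 to 0.943 for deviations from the group means. These correlations describe genes measured in the same libraries, with shared depth and, within a pair of copies, shared sequence.

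In wild-type hosts all 4 globin genes rose 1 day after Salmonella. Hbb-bs rose by 2.97 on the log2(FPKM + 0.5) scale, a scale that understates changes of low genes (SE 0.57, limma adjusted p = 0.004996), and its mean FPKM was 7.09 times that under PBS. Hba-a2 rose by 2.71 (SE 0.65, adjusted p = 0.0116), Hbb-bt by 2.42 (SE 0.55, adjusted p = 0.00916) and Hba-a1 by 2.18 (SE 0.62, adjusted p = 0.0224). Alas2 rose by 1.18 (SE 0.34, adjusted p = 0.0217), with a mean FPKM 3.15 times as high. That makes 5 of 5 tested members higher, with no overlap between groups in any, where 19.2% of all tested genes were called higher and 16.2% lower, and 15.6% lay higher without overlap in FPKM. The median difference of the 5 was 2.42, against 0.00 over all genes. The filter asked for 0.5 FPKM in 3 libraries: Alas2 reached that level in 5 libraries, 3 of them wild type with Salmonella, so it was tested because of the group where it is high, while the globin genes reached it in 11 or 12 of 12 libraries. In bulk tissue, a change in the number of red cells and a change in the RNA per cell cannot be told apart.

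Hbb-bs and Hbb-bt passed whichever library was left out, with adjusted p of 0.000963 to 0.0263 and 0.00386 to 0.0445. Hba-a2 was lost without wild-type Salmonella F-1 (adjusted p = 0.0553). Hba-a1 was lost without wild-type Salmonella F-1 (0.0948) or M-1 (0.0773), or without wild-type PBS M-1 (0.0821) or M-2 (0.0695), each an adjusted p from limma. Alas2 was lost without wild-type Salmonella F-1 (adjusted p = 0.101) or M-1 (0.0617), or wild-type PBS F-1 (0.0517) or M-1 (0.0854), and on recovered fragments with voom (0.0589). With only the wild-type groups in the fit, Hba-a1 (adjusted p = 0.0516) and Alas2 (0.0550) also missed. Without wild-type Salmonella M-2, the library that stands apart, all 5 differences were larger, from 1.49 for Alas2 to 3.52 for Hbb-bs. The number of members called was 3 without wild-type PBS M-1, 2 without wild-type Salmonella F-1 and 3 without wild-type Salmonella M-1. Calls over all tested genes also fell in these fits, to 2803, 2049 and 2277 in place of 4312, so the losses are not particular to the members.

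In TLR4 knockout hosts no member passed for Salmonella against PBS with limma, where 0.756% of all tested genes were called. An unadjusted p under 0.05 was found for 1 of 5 members and for 19.2% of all tested genes, so the members' share was near that of all genes, and voom called 0. Hbb-bs differed by 1.43 on the log2 scale (95% interval 0.16 to 2.70, adjusted p = 0.211), with mean FPKM 2.47 times that under PBS. For Hbb-bt the difference was 0.84 (interval -0.37 to 2.05), for Hba-a1 0.81 (-0.57 to 2.18), for Hba-a2 0.72 (-0.72 to 2.16) and for Alas2 0.12 (-0.63 to 0.87). The ranges of the groups overlapped for all 5 genes, and knockout PBS M-2 lay above 1 or more Salmonella libraries for each.

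Under PBS, knockout hosts held less of each gene on average, but no member passed. The differences ran from -0.36 for Alas2 to -1.56 for Hbb-bs, and each adjusted p was 1.0 with limma. Here 3 of 5 members had an unadjusted p under 0.05, voom called 0, and 0% of all tested genes were called, 176 (1.45%) having an unadjusted p under 0.05. Hbb-bs had a 95% interval of -2.83 to -0.29 and a mean FPKM 0.357 times that of wild-type hosts. In all 5 genes knockout M-2 reached into the wild-type range.

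After Salmonella, all 4 globin genes and Alas2 were lower in knockout than in wild-type hosts. The difference was -3.10 for Hbb-bs (SE 0.57, limma adjusted p = 0.0175), -2.97 for Hbb-bt (adjusted p = 0.0174), -2.89 for Hba-a1 (adjusted p = 0.0254) and -2.86 for Hba-a2 (adjusted p = 0.0302). The mean FPKM of the globin genes in knockout hosts was 0.124 to 0.133 times that in wild-type hosts. Alas2 differed by -1.42 (adjusted p = 0.0319), at 0.201 times the wild-type mean. So 5 of 5 tested members were called lower and none overlapped, where 5.82% of all tested genes were called lower and 2.92% higher, and 9.53% lay lower without overlap in FPKM. Alas2 was tested only because of the wild-type Salmonella libraries, the higher group here, so its place in this count supports nothing. This comparison shares the wild-type Salmonella libraries with the one between treatments in wild-type hosts, so the pair are not independent.

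These calls depended on single libraries: without wild-type Salmonella F-1, wild-type Salmonella M-1, knockout Salmonella M-1 or knockout Salmonella M-2, 0 of 5 members passed. The adjusted p of Hbb-bs was then 0.0897, 0.0831, 0.0728 and 0.0638, while its difference stayed between -2.79 and -3.14. Hba-a2 also missed without knockout Salmonella F-1 (adjusted p = 0.0549). Without wild-type Salmonella M-2 the 5 differences were -1.73 to -3.65 and all passed. With voom 2 of 5 were called, and with only the 2 groups in the fit 0 of 5. Calls over all tested genes, 1063 in the main fit, also varied widely with the library left out. These losses are therefore not read as particular to the members.

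The interaction asks whether Salmonella moved these genes differently in the 2 host genotypes. No member passed it with limma: 0 of 5 by adjusted p, 0 by unadjusted p under 0.05 and 0 with voom, where 0.0247% of all tested genes were called. An unadjusted p under 0.05 was found for 14.4% of all tested genes, so 0 of 5 is near that share. The differences were -1.99 for Hba-a2 (95% interval -4.03 to 0.04), -1.58 for Hbb-bt (-3.29 to 0.13), -1.53 for Hbb-bs (-3.33 to 0.26), -1.37 for Hba-a1 (-3.31 to 0.58) and -1.05 for Alas2 (-2.11 to 0.01). Their adjusted p ran from 0.349 to 0.453. The rise after Salmonella is thus not shown to differ between genotypes, and the intervals reach from well below 0 to just above it. Leaving out wild-type Salmonella M-2 gave differences of -1.37 to -2.61 and adjusted p of 0.0529 to 0.115.

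**Figure D2:**
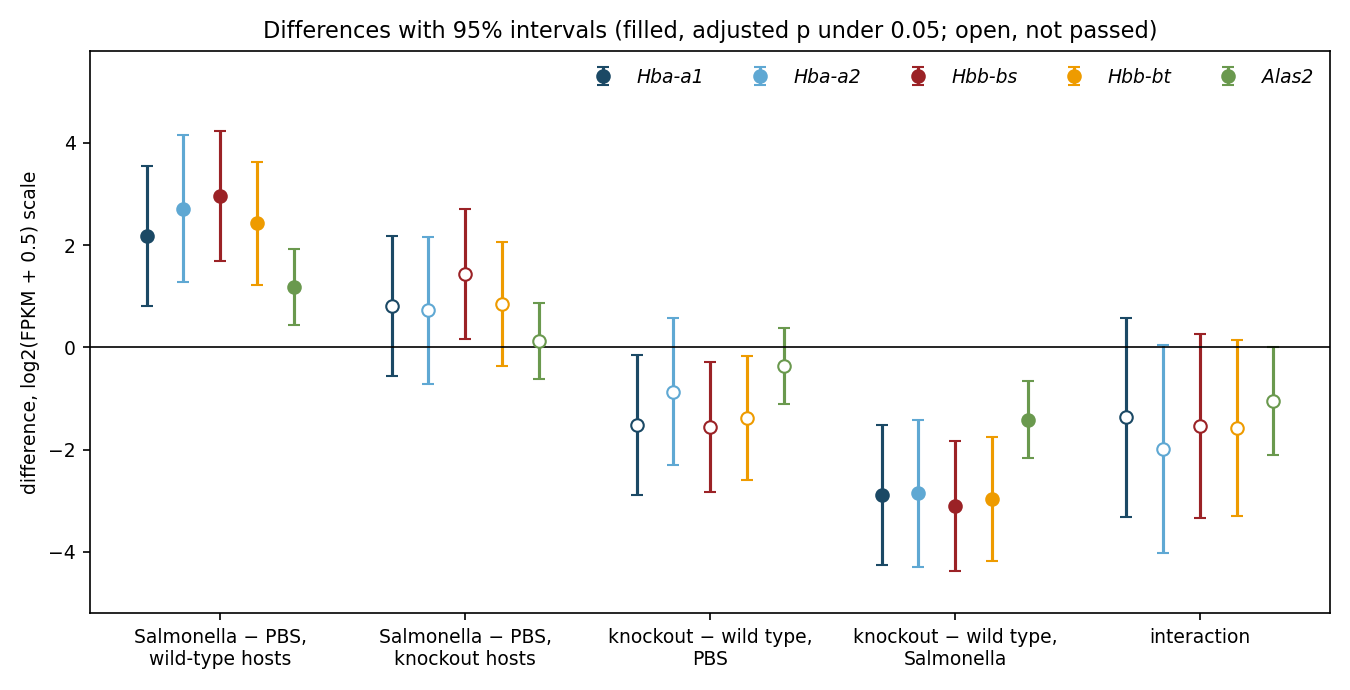
Differences of the 5 tested genes on the log2(FPKM + 0.5) scale (y axis) in the 5 comparisons (x axis), with 95% intervals from limma; filled points passed an adjusted p of 0.05. All 5 genes are filled and above 0 in the comparison of treatments among wild-type hosts, and filled and below 0 for knockout against wild type under Salmonella.

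The 4 globin genes together took few fragments. In fragments out of every 1000000 of a library, they held 39.0, 17.5 and 38.1 in wild-type hosts under PBS and 242.0, 230.6 and 90.7 after Salmonella. In knockout hosts the numbers were 6.46, 6.35 and 22.1 under PBS and 30.4, 25.4 and 15.3 after Salmonella.

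Alpha and beta chains pair one to one in haemoglobin, and the summed FPKM of the alpha genes stayed below that of the beta genes in every library. This ratio also depends on how fragments shared by the copies of a pair were counted, which is not known here. The ratio of alpha to beta FPKM was 0.968, 0.516 and 0.428 in wild-type hosts under PBS and 0.444, 0.410 and 0.360 after Salmonella. Knockout libraries had ratios of 0.665, 0.536 and 0.721 under PBS and 0.383, 0.468 and 0.494 after Salmonella. Wild-type PBS F-1 stood highest, and the group means of 0.637 ± 0.290, 0.404 ± 0.0419, 0.641 ± 0.0948 and 0.449 ± 0.0584 (SD, n = 3) were given no test. In knockout hosts the groups did not overlap, while in wild-type hosts they did.

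Within the alpha pair, Hba-a1 took 69.2%, 71.5% and 71.4% of fragments in wild-type Salmonella libraries and 72.4%, 71.4% and 71.4% in knockout Salmonella libraries. Under PBS the share was 86.4% (95% Wilson interval 83.6% to 88.8%) in wild-type F-1, 80.6% in M-1 and 68.1% (63.3% to 72.6%) in M-2. Knockout PBS libraries had 70.9%, 80.8% and 65.8%. Thus the share varied by more than counting error among PBS libraries, whereas the 6 Salmonella libraries lay within 69.2% to 72.4%. These intervals cover counting error only.

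Hbb-bs took 74.8% to 94.6% of the fragments of the beta pair, both extremes being knockout PBS libraries with few fragments. The remaining libraries held 82.9% to 89.4%. The copies of each pair are hard to separate by reads. The GENCODE M21 transcripts of Hba-a1 and Hba-a2 were identical at 537 of 538 aligned bases, and those of Hbb-bs and Hbb-bt at 580 of 626. Of the 100-base windows of Hba-a1, 56.5% also occurred in Hba-a2, and 62.57% of those of Hbb-bs occurred in Hbb-bt, so the division of fragments within a pair is uncertain. If shared fragments were left out of the counts, the totals of each pair would be too low as well. Summing each pair to 1 row gave differences in wild-type hosts of 2.33 for alpha (adjusted p = 0.0199) and 2.91 for beta (adjusted p = 0.00509), so the calls in that comparison did not depend on the division.

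**Figure D3:**
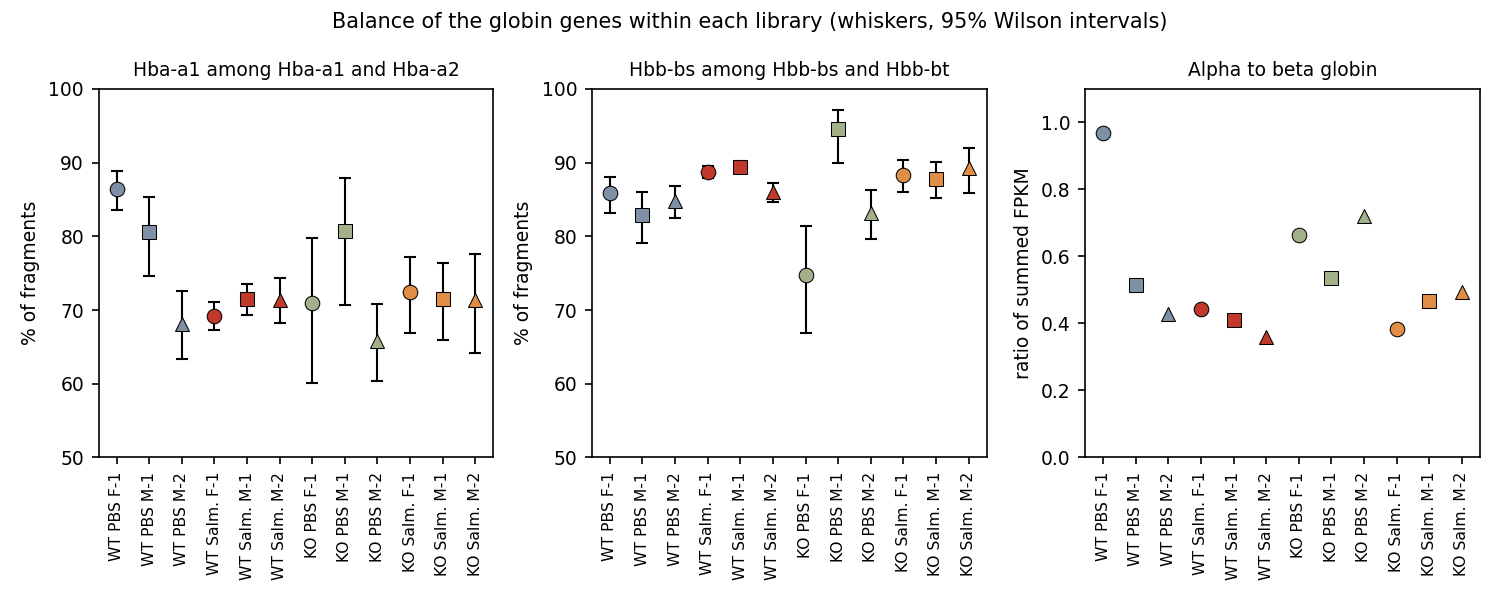
Share of Hba-a1 among alpha-globin fragments, share of Hbb-bs among beta-globin fragments (y axes in %, from 50) and alpha to beta ratio of summed FPKM, by library; whiskers are 95% Wilson intervals, circles F-1, squares M-1 and triangles M-2. The Hba-a1 share lies at 69.2% to 72.4% in the 6 Salmonella libraries and at 65.8% to 86.4% under PBS.

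Slc4a1 was nearly absent. It had 1, 3 and 1 fragments in wild-type hosts under PBS, 2, 0 and 0 after Salmonella, 1, 1 and 0 in knockout hosts under PBS and 0, 2 and 5 after Salmonella. That is 16 fragments in 12 libraries, and the upper limit behind a library with no fragment (3 fragments) was worth 0.0170 to 0.0216 FPKM. A difference in Slc4a1 was therefore not detectable at this depth.

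Ahsp and Gata1, which define red cell precursors, were also at or near 0. Ahsp, the chaperone of free alpha globin, had 0 to 6 fragments in a library, and 0 in all Salmonella libraries. Gata1, the factor that drives red cell development, had 0 to 6 fragments. Klf1, another erythroid factor, was measurable at 13 to 59 fragments and differed by 0.12 after Salmonella in wild-type hosts (limma adjusted p = 0.698).

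**Figure D4:**
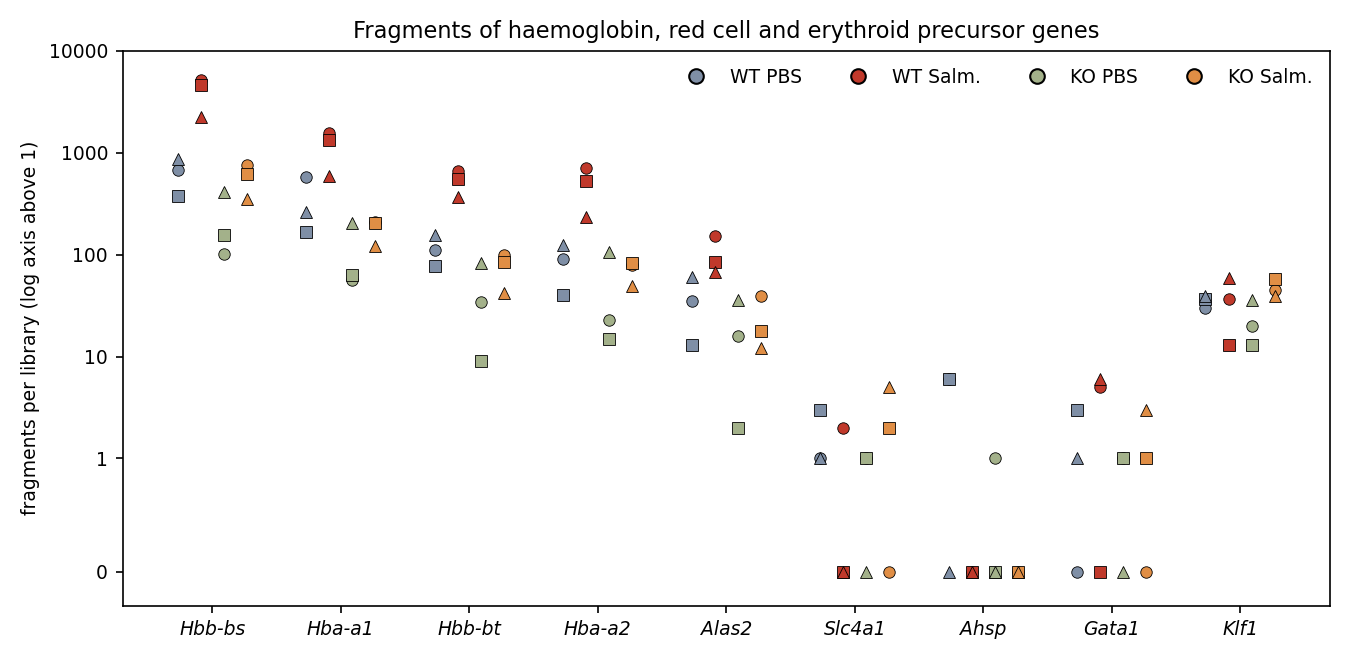
Fragments per library (y axis, logarithmic above 1) of the 6 genes and of Ahsp, Gata1 and Klf1, coloured by group; circles are F-1, squares M-1 and triangles M-2. The globin genes separate wild-type Salmonella libraries from the others, while Slc4a1, Ahsp and Gata1 stay at 6 fragments or fewer in every library.

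Lists of related genes were described by their counts in wild-type hosts, Salmonella against PBS. Many low genes on them were tested because of the group where they were high, so the counts describe and support nothing further. They stand beside 19.2% of all tested genes called higher and 16.2% lower. Of 21 genes of the red cell membrane and skeleton, 19 were listed, 13 fell under the filter and 6 were tested. Of these 2 rose, 2 fell and the median was -0.26. Cd47, a surface protein of most cells that inhibits uptake by phagocytes, rose by 1.08 (adjusted p = 0.00417) and Gypc, glycophorin C, by 0.70 (adjusted p = 0.0231). Aqp1, a water channel of red cells and endothelium, fell from 254.9 ± 20.4 to 160.2 ± 39.9 FPKM (-0.49, adjusted p = 0.0417).

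Of 12 tested genes of late erythroid cells and reticulocytes, 4 rose and 0 fell, with a median of 0.16, against 19.2% of all genes called higher. The top genes were Car2, a carbonic anhydrase, at 1.12 (adjusted p = 0.00120), Acp5, an acid phosphatase also made by macrophages, at 0.90 (adjusted p = 0.0269) and Blvrb, a biliverdin reductase, at 0.51 (adjusted p = 0.0204). Of 16 haem synthesis genes, 4 rose and 1 fell, with a median of 0.08, beside the 19.2% higher and 16.2% lower of all genes. Alas1, the form of the first enzyme used outside red cells, rose by 0.86 (adjusted p = 0.00503), Flvcr1, a haem exporter, rose by 0.39 (adjusted p = 0.0373), and the mitochondrial transporter Abcb10 fell by 0.51 (adjusted p = 0.0232). Alas1, at 14.4 FPKM under PBS and 23.2 after Salmonella, was far above Alas2 per length.

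Of 11 tested regulators of erythroid precursors, 2 rose and 1 fell, with a median of -0.17, and 2 of 11 is near the 19.2% of all genes called higher. Nfe2, a factor of megakaryocytes and red cell precursors, rose by 2.29 (adjusted p = 0.00158), and Kit, the stem cell factor receptor, by 1.47 (adjusted p = 0.00913). E2f2, a cell cycle factor, fell by 0.45 (adjusted p = 0.0324). Of 2 tested globin genes outside the adult clusters, Mb, the myoglobin of muscle, rose by 2.27 (adjusted p = 0.00664), and Cygb, cytoglobin, differed by 0.50 (adjusted p = 0.0897).

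Some markers of platelets, vessels and neutrophils also rose in wild-type hosts. Of 18 genes on the platelet list, 11 fell under the filter, with 6 to 356 fragments each over the 12 libraries. Among these 11, Gp9 had 22 fragments, Gp5 9, Gp6 11, Clec1b 6, Tubb1 15 and Treml1 14. Of 7 tested platelet genes, 4 rose (median 1.64), and the summed FPKM of the list was 14.7 to 15.2 under PBS and 139.8 to 159.2 after Salmonella in wild-type hosts, against 12 to 18.1 and 32.9 to 46.3 in knockout hosts. Pf4, platelet factor 4, rose from 9.46 to 131.6 FPKM (3.93, adjusted p = 2.07e-07). Itga2b, the defining integrin of platelets, differed by 0.43 (limma adjusted p = 0.0722). Whether the amount of platelets changed was not tested. By summed FPKM the platelet list was as high in wild-type Salmonella M-2, at 159.2, as in F-1, at 139.8, but Pf4 made up most of that sum. By the mean log2 difference over its tested genes, M-2 was the lowest of the group, as for the globin genes. The values were 1.42 in M-2, 1.52 in F-1 and 1.85 in M-1.

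Of 20 endothelial genes, 17 rose (median 1.23), with summed FPKM of 81.4 to 110.1 under PBS and 184.3 to 225.8 after Salmonella in wild-type hosts. The knockout ranges were 88.7 to 107.1 and 113.3 to 150.2 FPKM. Pecam1, the platelet and endothelial adhesion molecule, rose by 1.20 (adjusted p = 0.00143), and Cdh5, the cadherin of vessel walls, by 0.69 (adjusted p = 0.0184). Among neutrophil genes 23 of 23 rose (median 4.45), and their summed FPKM was 37.1 to 43.5 under PBS and 3429 to 22090 after Salmonella in wild-type hosts, 23.4 to 52.7 and 629.6 to 1210 in knockout hosts. The part of platelets, vessels and neutrophils in the globin result was not tested.

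Skeletal muscle genes also moved, with 8 of 11 higher by limma and 5 by voom (median 2.39), where limma called 19.2% of all genes higher. Their summed FPKM in wild-type hosts was 15.2 to 19.0 under PBS and 65.7 to 125.6 after Salmonella. In knockout Salmonella F-1 the same list reached 161.8 FPKM, against 18.5 in M-1 and 29.1 in M-2, while globin fragments there were 30.4, 25.4 and 15.3 of every 1000000. Of 4 tested blood B cell genes, 0 were called with limma, 1 had an unadjusted p under 0.05 and voom called 0. Their list had a summed FPKM of 7.62 to 10.7 under PBS and 4.85 to 9.25 after Salmonella in wild-type hosts. The defining B cell gene Cd79a differed by -0.18 (adjusted p = 0.616). The part of muscle and of blood lymphocytes in the globin result was not tested.

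**Figure D5:**
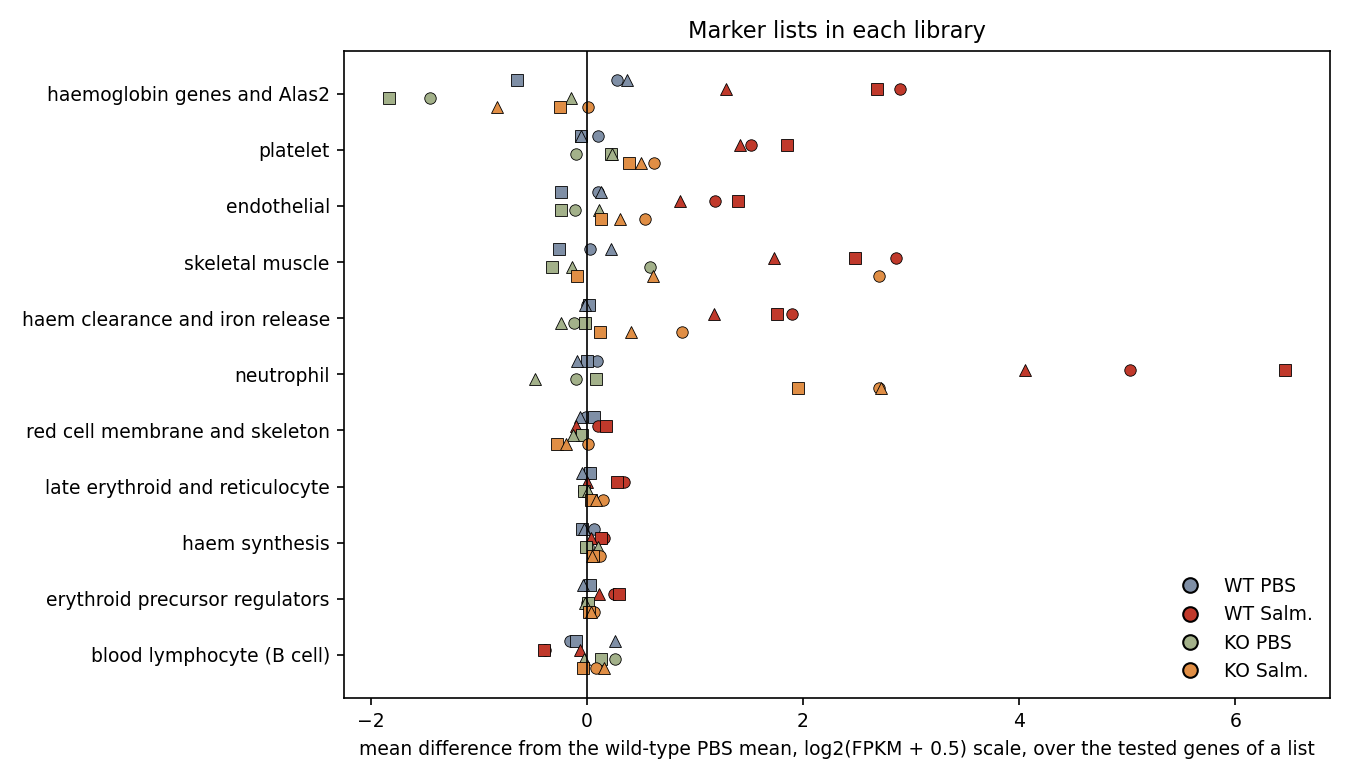
Mean difference from the wild-type PBS mean on the log2(FPKM + 0.5) scale (x axis) over the tested genes of each list (y axis), by library; colours are groups, circles F-1, squares M-1 and triangles M-2. Wild-type Salmonella libraries lie at 1.29 to 2.90 for the haemoglobin genes with Alas2 and at 1.42 to 1.85 for platelet genes, but at -0.10 to 0.18 for red cell membrane genes.

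Genes that bind or break down free haemoglobin and haem, and store or release its iron, rose together in wild-type hosts. Limma called 13 of 13 tested higher, where 19.2% of all tested genes were called higher, and voom called 11 (median 1.35). Hp, haptoglobin, which binds free haemoglobin and is also an acute-phase protein, rose from 8.95 to 339.3 FPKM (5.35, adjusted p = 0.000194). Hmox1, haem oxygenase 1, rose from 226.6 to 909.6 FPKM (2.17, adjusted p = 0.000445), and Fth1, the ferritin heavy chain, by 1.75 (adjusted p = 0.000902). In knockout hosts 1 of 13 was called, where 0.756% of all tested genes were called. That gene was Hp, by 2.80 (limma adjusted p = 0.0346), and voom called 0 (Hp adjusted p = 0.0892). The part of haem clearance and iron release in the globin result was not tested.

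Among 10164 genes ranked over 12 libraries, genes most like the mean log2 level of the 4 globin genes included Nrep (Pearson r 0.951), Atrnl1 (0.950), Col4a1 (0.948), Dll4 (0.929), Cdc42ep3 (0.924), Egfl7 (0.923) and Adgrf5 (0.922). Col4a1 encodes a collagen of basement membranes, and Dll4 a Notch ligand of endothelium. By deviations from the group means the closest included Cisd3 (0.982), Vwa1 (0.972), Ddrgk1 (0.971), Arpc1b (0.966), St7 (0.948), Nxt1 (0.947) and Txn2 (0.946). These values come from the same libraries as the globin levels, share their depth and scaling, and are given without a test.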

How the data were processed

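Per the labels' protocols, TRIzol was used to extract tumour RNA and a VAHTS Universal V6 kit to prepare libraries. Tools named in the submitters' processing notes are fastp, HISAT2 and HTSeq, without versions. Genome build and strand setting: not given in the sources used here. Each library has 1 table that the authors deposited, whose unit was inferred from the values as FPKM: for 18608 of 18609 genes they were whole numbers of fragments, within 0.01 fragments, at 1 gene length. The recovered fragments gave the depth, shares and voom fit.

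Values were divided by a trimmed mean of log ratios factor (30% of ratios and 5% of levels trimmed), 0.5 was added, and log2 values were fitted with limma 3.58.1 (R 4.3.3), with trend and robust settings, over 12 libraries with 4 group means and 8 residual degrees of freedom. A gene was tested where 3 or more libraries reached 0.5 FPKM, with two-sided p-values and Benjamini-Hochberg adjustment over all of them at 0.05. The fit was tested on simulated data. Dividing by the factors moved the median of all genes, which as deposited was -0.19 for the treatment effect among wild-type hosts and 0.16 for knockout against wild type under Salmonella. Same-titled libraries did not deviate together, 7 of 18 pairs having r over 0.1 (-0.332 to 0.397), so titles were not used as pairs.

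The members, lists and tests were chosen with earlier results of these data known. Named are the 6 members, from each list the 3 genes ranked first by p for Salmonella in wild-type hosts, 10 defining genes, and the 8 genes most like the globin mean by each of 2 measures. From each list only some of these are given, and a few named by it are left out of the text. Alternatives were median-of-ratios scaling, no scaling, pseudocounts of 0.1 and 1, no or a stricter filter, only the groups compared, the title as a block, its letter as a term, no trend, voom, each library left out, and, added after seeing the data, summed globin copies. Positions, transcripts and promoters come from RefSeq and GENCODE M21 on GRCm38, and the authors may have used another build. Slc4a1 was not matched in the promoter table.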

Additional observations from a re-analysis of the deposited data

Results flagged for a closer look

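The platelet genes Pf4 and Tmem40, from the list read beside the globin genes, showed a difference between host genotypes in the effect of Salmonella. For Pf4 the knockout effect minus the wild-type effect was -2.15 on the log2(FPKM + 0.5) scale (limma adjusted p = 0.00848). For Tmem40 it was -2.33 (adjusted p = 0.00848). Pf4 rose by 3.93 in wild-type and by 1.78 in knockout hosts, and Tmem40 rose by 1.64 in wild-type hosts and differed by -0.69 (adjusted p = 0.101) in knockout hosts. Neither call held with voom on the recovered fragments (adjusted p = 0.0508 for both). None of the 5 tested haemoglobin and red cell genes passed the same test.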

How the results depend on the processing

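Of 572 recomputed values for single members and for the alpha to beta ratio, 525 kept their direction and side of the threshold. No member passed in any setting for Salmonella in knockout hosts, for genotype under PBS or for the interaction, so those values kept their side throughout. With 1 library left out, members passed in 8 to 12 of 12 fits for Salmonella in wild-type hosts. For knockout against wild type under Salmonella they passed in 7 to 8 of 12. The number of members higher in wild-type hosts after Salmonella was 3 of 5 with only the groups compared, and 2 to 5 when 1 library was left out. The number lower in knockout hosts under Salmonella was 0 with only the groups compared, 2 with voom and 0 to 5 when 1 library was left out. Over all genes, calls in wild-type hosts numbered 2435 with only the groups compared and 2049 to 6199 over libraries left out. In knockout hosts they numbered 33 with no filter, 188 with only the groups compared, 59 with no trend, 22 with voom and 4 to 737 over libraries left out. For knockout against wild type under PBS 1 gene was called with no filter. Under Salmonella the count was 12 with only the groups compared, 531 with voom and 10 to 4559 over libraries left out. For the interaction it was 6 as deposited, 6 with no trend, 0 with voom and 2 to 2211 over libraries left out. The highest counts, 6199, 737, 4559 and 2211, came without wild-type Salmonella M-2. The cause was not tested.

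With the replicate block, 46 genes were called in knockout hosts in place of 92, and the 5 members called in wild-type hosts and the 5 under Salmonella were called as before. Without scaling factors 1500 genes were higher and 3365 lower in wild-type hosts, in place of 2337 and 1975, and 834 higher and 591 lower in knockout hosts under Salmonella, in place of 355 and 708, while all 5 members kept their calls. Alas2 turned sign in knockout hosts without knockout PBS M-1 (-0.10) and without knockout Salmonella F-1 (-0.06), neither passing, and lay between -0.10 and 0.34 over libraries left out. For knockout against wild type under Salmonella it missed with a pseudocount of 0.1 (adjusted p = 0.0534), no filter (0.0510) and voom (0.0815). The alpha to beta ratio from Hba-a1 and Hbb-bs alone was 0.325 in wild-type and 0.364 in knockout Salmonella libraries. The interaction could not be fitted with only 2 groups, and the globin share of the FPKM total by single gene was not run. With 3 libraries a group, wide intervals limit the members, and depth limits Slc4a1.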
